A study of Homo sapiens with 3 samples.

Results

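The regions described here are the H3K27me3 peaks on the arms of human chromosome 19, on the T2T-CHM13 build. They run from the chromosome start up to base 25800001, the first left out (short arm), and from base 29800001 to the last peak end, 61707342 (long arm). They were chosen by position alone. The arms held 5179 of 181157 peaks in the control list and 2354 of 105729 peaks in the siORCA list. The left-out middle of the chromosome, around the centromere, held a further 613 control and 775 siORCA peaks. No peak crossed a border: in the last 100 kb kept on the short arm control coverage was 16.5% and siORCA coverage 17.3%, against 15.2% and 8.11% in the adjoining 100 kb left out. On the long-arm side the corresponding values were 0% and 0.111% inside, and 12.0% and 7.83% outside.

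The cells were U2OS, an established human osteosarcoma line. A chromatin immunoprecipitation library for H3K27me3 was made from cells transfected with the control (Gl3) and another from cells transfected with siORCA, directed against ORCA, a partner protein of the complex that binds replication origins. Both carry the same batch label, and an input library without a transfection treatment completes the 3 samples; the input was not analysed here. By its title, the series asks how ORCA bears on the stability of Polycomb complexes, on genome folding and on replication timing. Each condition had 1 library, so no value below has a replicate check and no difference between the conditions was tested.

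H3K27me3 is trimethylation of lysine 27 on histone H3, which the enzyme complex PRC2 writes and which marks Polycomb-silenced chromatin. It often spreads over broad stretches, where peak callers join many neighbouring peaks. Chromosome 19 is known for its high gene density and for families of genes that arose by local duplication. The largest of these families encodes KRAB zinc finger proteins, DNA-binding repressors that act on transposable elements, whose gene clusters are in many cell types better known for the heterochromatin mark H3K9me3 than for H3K27me3. In the RefSeq gene table used here (GRCh38.p14), 264 of 568 protein-coding genes with a zinc finger gene symbol (ZNF, ZFP, ZSCAN, ZIM or ZKSCAN) were on this chromosome, and 212 of them stood in 19 runs of at least 5 such genes in a row. The files use another build, so no peak was tied to a gene, and it was not tested here whether the broad regions below are zinc finger clusters.

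In the control, peaks covered 8.49 Mb (14.7%) of the 57.7 Mb of the arms, and in siORCA 1.89 Mb (3.28%). The ratio of siORCA to control covered length was 0.223. The long arm was the more densely covered in both lists: 20.1% in the control and 3.78% in siORCA, against 8.05% and 2.66% on the short arm. The ratio was lower on the long arm (0.188) than on the short arm (0.331), a contrast that rested on few places. Without the stretch from 24 Mb to the middle, the short-arm ratio was 0.216. Without the control domains with a peak of at least 50 kb as well, it was 0.128, below the long-arm ratio without such domains, 0.146. These removals were chosen after seeing the data, and a stretch next to the middle was left out on the short arm only. The order of the arms after them is thus not a comparison on equal terms. Bases covered in both lists made up 17.6% of the control length and 78.9% of the siORCA length. The length covered in the control alone came to 6.99 Mb and that in siORCA alone to 0.399 Mb. No source used here states the depth of the libraries, so a shallower siORCA library and a loss of the mark cannot be told apart.

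The peaks themselves were shorter in siORCA, with a median width of 373 bp against 599 bp in the control. The upper quartile was 684 bp in siORCA and 1457 bp in the control. The fold enrichment that the authors' caller gave to each peak had a median of 3.205 in siORCA and 2.801 in the control. The lowest fold called on the arms was 2.73 in siORCA and 1.57 in the control. Of the control peaks on the arms, 1967 of 5179 (37.98%, 1.10 Mb of peak length) had a fold below the lowest siORCA fold. The folds of the lists thus start at different levels and are used below only within a list.

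**Figure D1:**
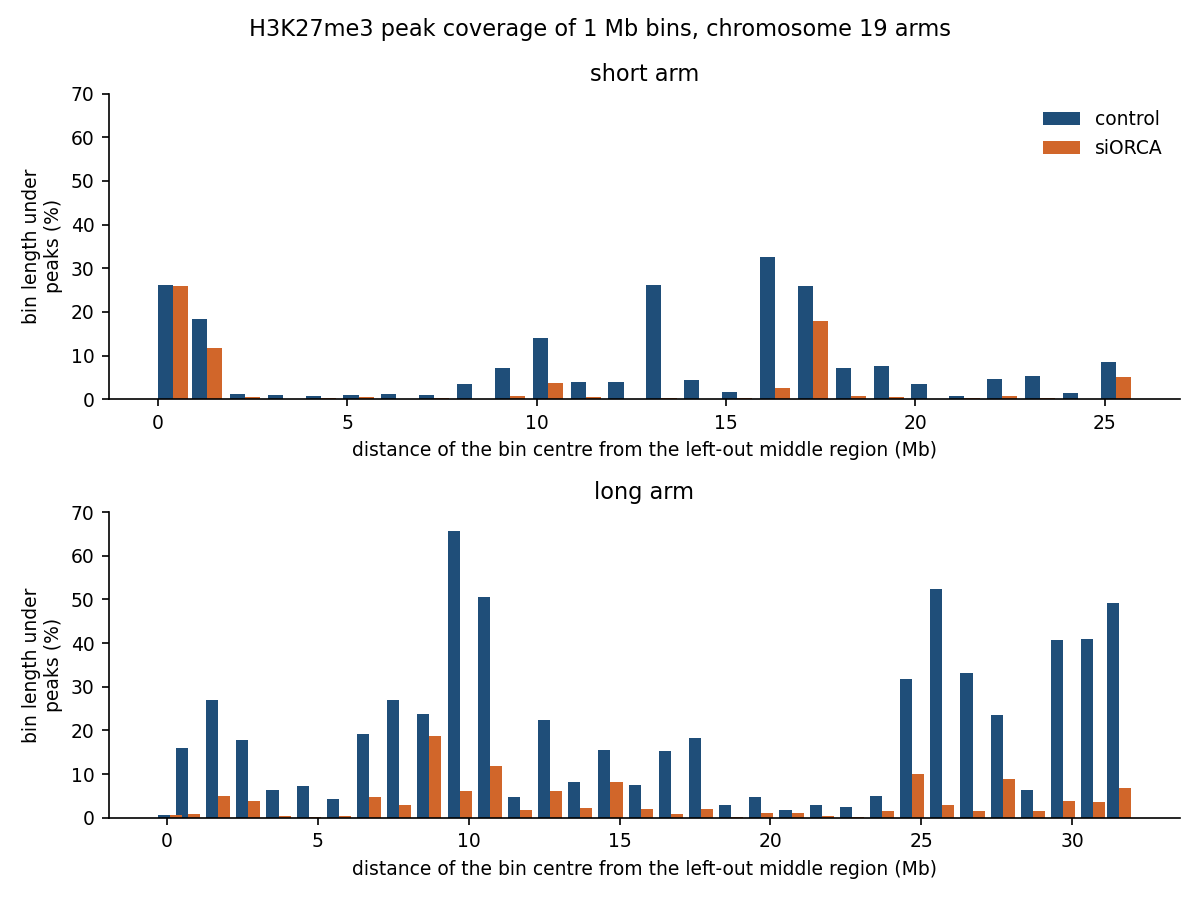
Share of each 1 Mb bin under H3K27me3 peaks (y axis, percent) against the distance of the bin centre from the left-out middle region (x axis, Mb), for the short arm (top) and the long arm (bottom), in the control (blue) and siORCA (orange); bars are single values from 1 library each. Control coverage reaches 32.5% on the short arm and 65.6% on the long arm, and siORCA coverage comes near that of the control in the short-arm bin next to the middle.

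Broad control coverage on the short arm was limited to a few places. Of 26 bins of 1 Mb, 4 reached 20% in the control, and the median bin was covered over 4.19%. In the bin from 8 to 9 Mb the control coverage was 25.9% and the siORCA coverage 18.0%. In the next, from 9 to 10 Mb, they were 32.5%, the highest control value of the arm, and 2.65%. The bin from 12 to 13 Mb stood at 26.1% and 0.399%, and the last bin, 0.8 Mb from 25 Mb to the middle, at 26.2% and 25.9%. In that last bin 47.6% of the control length was also covered in siORCA. Neighbouring broad bins of similar control coverage therefore differed widely in siORCA. Thin coverage prevailed elsewhere: from 17.2 to 24.4 Mb, each of 72 consecutive 100 kb bins was covered over less than 5% in the control. Together they held 170 control peaks of at most 3.44 kb over 0.970% of their length, and siORCA peaks over 0.310%. It was the longest stretch of this kind on the arms, followed by one of 18 bins from 0.5 to 2.3 Mb (1.51% and 0.0982%). In the gene order of the RefSeq table, the longest run of zinc finger genes, 27 genes from ZNF737 to ZNF681, is the last such run before the widest gap between neighbouring genes on the chromosome, which follows ZNF254. Whether that run lies in the thin stretch was not tested.

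On the long arm, 13 of 33 bins of 1 Mb reached 20% in the control, in 5 blocks of adjacent bins, and the median bin was covered over 15.9%. Control coverage between 37 and 41 Mb was 41.7% (1.67 Mb) and siORCA coverage 9.89% (0.395 Mb). Between 54 and 58 Mb the values were 35.2% (1.41 Mb) and 5.89% (0.236 Mb). The last block, from 59 Mb to the last peak end, stood at 43.0% (1.16 Mb) and 4.54% (0.123 Mb), and had the lowest ratio of the long-arm blocks, 0.105. Single bins made up the other blocks, from 31 to 32 Mb (26.99% and 5.04%) and from 42 to 43 Mb (22.3% and 6.06%). All 5 blocks, chosen by control coverage alone, were lower in siORCA, with ratios from 0.105 to 0.271 (0.188 over the whole long arm). No like count of blocks is given for other chromosomes.

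The ratio also changed from bin to bin inside these blocks. From 38 to 39 Mb the ratio was 0.782, with 23.8% of the bin covered in the control and 18.6% in siORCA. From 39 to 40 Mb, the most densely covered bin of the arms at 65.6% in the control, it was 0.0949, with 6.22% in siORCA. Within the block from 54 to 58 Mb, the ratios were 0.317 and 0.380 in the outer bins and 0.0556 and 0.0503 in the inner bins. In the last block they were 0.0953, 0.0890 and 0.137, without a bin that stood apart. The 19 bins of the long arm with at least 10% control coverage held 89.8% of its control length. Over both arms, 20 of the 25 bins with at least 10% control coverage (80%) had under 50% of the control length in siORCA. The share was 63.2% over all 23 chromosomes and 86.3% in the last 20 Mb of the 22 other chromosomes. The bins were thus near other chromosome ends, in a comparison that sets whole arms against ends only.

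At 100 kb, 140 of 578 bins on the arms were covered over at least 20% in the control, called broad bins below: 35 of 258 on the short arm and 105 of 320 on the long arm. They held 79.0% of the control length (6.71 Mb) and 82.6% of the siORCA length (1.56 Mb). In siORCA, 22 bins reached 20%, of which 21 were broad in the control. In 120 of the 140 broad bins (85.7%) the siORCA covered length was less than 50% of that of the control, whether or not at the same bases. The corresponding share over all 23 chromosomes was 54.3%, and 83.7% in the last 20 Mb of the 22 other chromosomes. The share on the whole arms of chromosome 19 was thus near that of the other chromosome ends, which are unlike regions. In the last 20 Mb of chromosome 19 alone, siORCA covered less than 50% of the control length in 60 of 63 broad bins. In 70 of the broad bins (50%) siORCA covered less than 10% of the control length, against 24% over all chromosomes and 28.9% in the other chromosome ends. No test of these differences was possible with 1 library each.

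**Figure D2:**
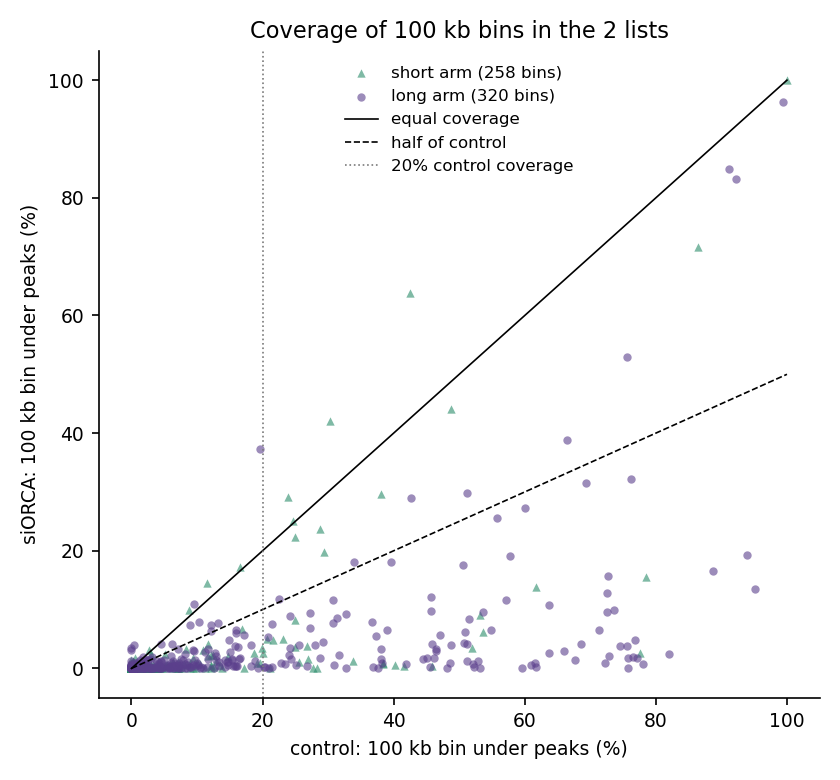
Each point is a 100 kb bin of the chromosome 19 arms, placed by its share under control peaks (x axis, percent) and under siORCA peaks (y axis, percent); triangles are the short arm (258 bins) and circles the long arm (320 bins), with lines for equal coverage, for 50% of the control and at 20% control coverage. Most bins to the right of 20% lie under the dashed line (120 of 140), and a small number of bins lie at or near equal coverage at any control level.

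Of the 35 broad bins on the short arm, 11 had a siORCA covered length of at least 50% of that of the control. On the long arm 9 of 105 did. Of the 11 on the short arm, 8 lay between 24 Mb and the middle and 2 in the domain around 8.8 Mb. Of the 9 on the long arm, 4 lay in the domains with a peak of at least 50 kb. The covered bases need not be the same: from 24.9 to 25 Mb the ratio was 0.896, with 28.2% of the control length shared. The median ratio of a broad bin was 0.169 on the short arm and 0.0841 on the long arm. Between bins that were not broad the arms were closer, with ratios of covered length of 0.180 and 0.188. Across all 578 bins the coverage of the lists had a Pearson r of 0.559 and a Spearman rho of 0.680, given as a description, because neighbouring bins share peaks and all bins share the same 2 libraries.

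Runs of at least 3 consecutive broad bins numbered 17, 5 on the short arm and 12 on the long arm, and held 5.65 Mb of control coverage. The siORCA peaks covered 1.32 Mb of them, with ratios from 0.0137 to 1.02 and a median of 0.153. The ratio was under 0.5 in 14 of the 17 runs, a count given without a like one for other chromosomes. Applied to the siORCA list itself, the same definition gave 1 run, from 25.3 to 25.6 Mb.

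The 10 runs with the most control length show how unevenly siORCA coverage fell. The longest, from 38.8 to 40.7 Mb, stood at 69.8% in the control and 18.4% in siORCA. From 54.5 to 56 Mb the values were 52.6% and 8.03%, from 60.5 to 61.4 Mb 61.8% and 6.18%, and from 59.4 to 60.3 Mb 57.6% and 6.15%. These 3 runs toward the end of the long arm were thus alike in both lists. The run from 8.7 to 9.1 Mb on the short arm stood at 79.6% and 48.3%. The run from 11.9 to 12.7 Mb, also on the short arm, stood at 34.4% and 0.470%, the lowest ratio of the 17 runs. It held 246 control peaks of at most 14.3 kb and 13 siORCA peaks of at most 0.462 kb. Of the remaining runs, siORCA coverage was 9.96% against 42.7% from 31.5 to 32.1 Mb and 1.54% against 49.1% from 56.1 to 56.6 Mb. It was 4.96% against 44.0% from 37 to 37.5 Mb. From 24.9 to 25.6 Mb alone it exceeded that of the control, at 29.4% against 28.8%. Shared bases there made up 46.6% of the control length and 45.6% of the siORCA length.

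**Figure D3:**
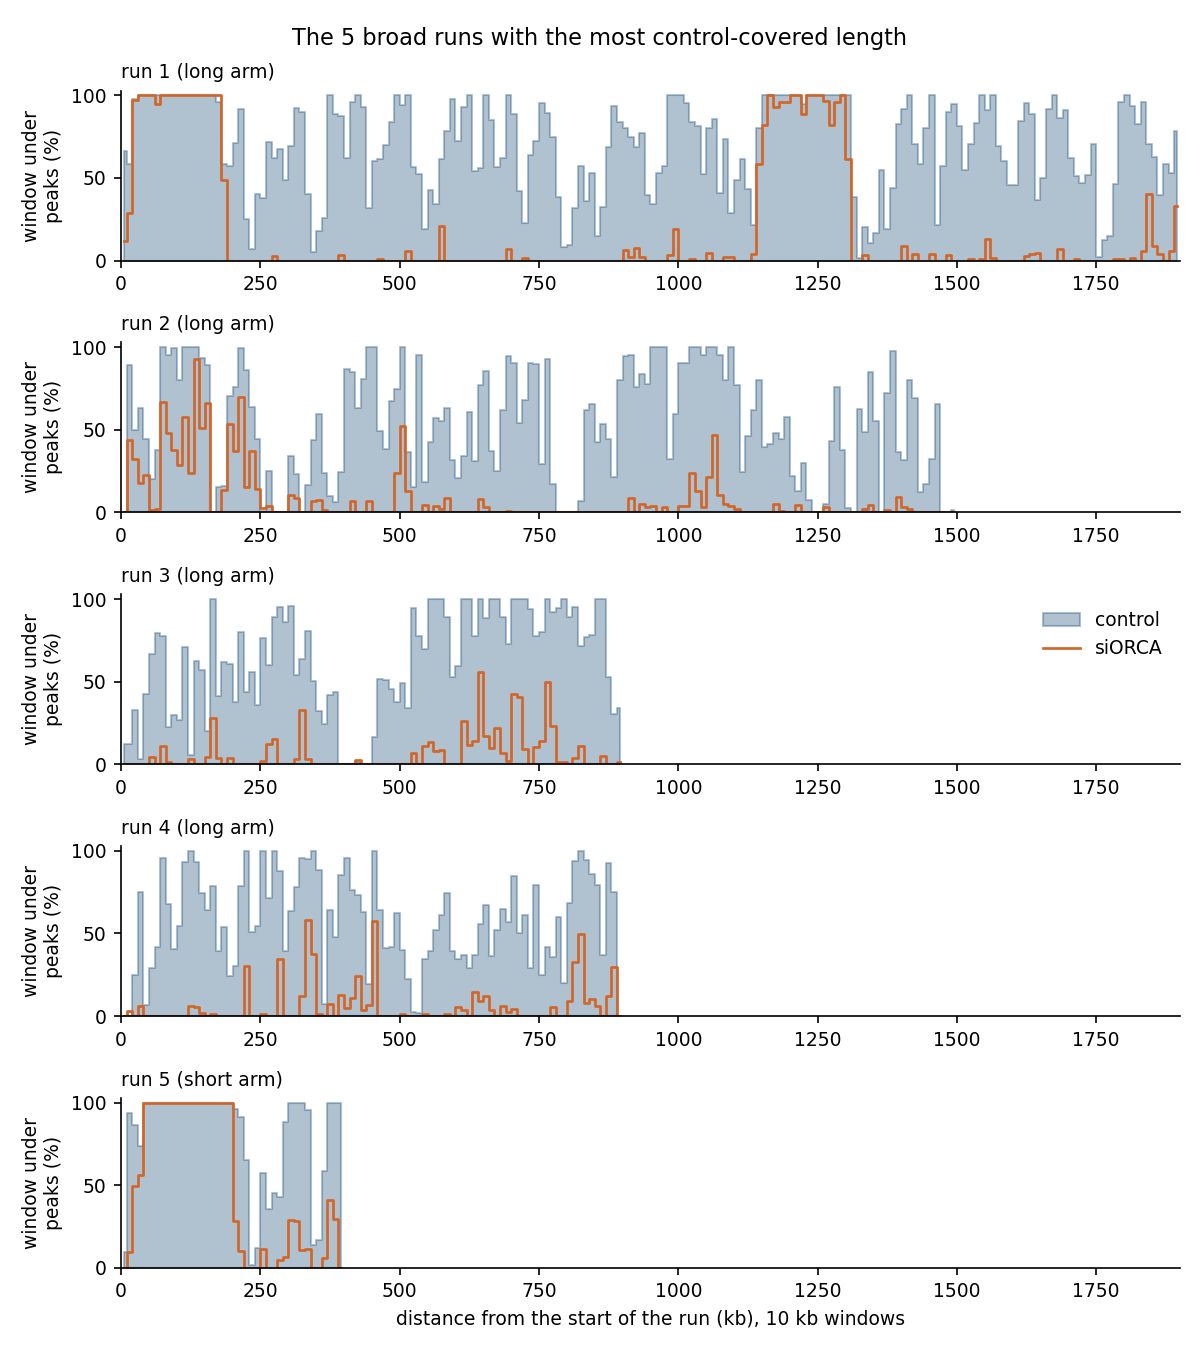
Share of consecutive 10 kb windows under peaks (y axis, percent) along the 5 broad runs with the most control length, against the distance from the start of the run (x axis, kb); blue areas are the control and orange lines siORCA, 1 library each. In run 1 siORCA fills 2 blocks and covers little of the 955.1 kb between them, and in run 5 it fills 1 block at the start.

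Inside the run from 38.8 to 40.7 Mb, siORCA coverage switched between nearly full and nearly empty. A block from 38816840 to 38986892 (170.1 kb) lay under control peaks over 98.5% of its length and under siORCA peaks over 98.2%. A second block, from 39941967 to 40109417 (167.5 kb), stood at 99.1% and 92.6%. Between them lay 955.1 kb with 298 control peaks over 63.3% of the length and 29 siORCA peaks over 1.01%. Among the 100 kb bins of that stretch, from 39.2 to 39.3 Mb the control covered 75.8% and siORCA 0.102%, and from 39.6 to 39.7 Mb they covered 48.1% and 0%. Past the second block, the bins from 40.2 to 40.5 Mb returned to 75.8% to 77.2% in the control and 1.69% to 1.99% in siORCA.

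Another filled block lay on the short arm from 8732540 to 8912317 (179.8 kb), with 99.4% of its bases in control peaks and 94.3% in siORCA peaks. It held the strongest peak of at least 1 kb in both lists. In the control this peak ran from 8735615 to 8903210 with a fold of 5.01, and in siORCA from 8736222 to 8901409 with a fold of 12.0. Their starts differed by 607 bp and their ends by 1801 bp. The next 100 kb bins, from 8.9 to 9 Mb and from 9 to 9.1 Mb, had 53.6% and 78.5% control coverage but 6.17% and 15.6% siORCA coverage. These 3 blocks are the siORCA domains filled over at least 90% by peaks, a limit set after the values were seen. They held 26.0% of all siORCA length on the arms (491.5 kb) and 6.04% of the control length (512.2 kb).

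In the control, the filled blocks were marked by long unbroken peaks and not by a higher fold throughout. Within the siORCA list, the same list from which they were chosen by fill, they had the highest mean folds of the 21 siORCA domains. These were 11.8 on the short arm and 4.58 and 4.002 on the long arm, against at most 3.796 in the others. On the long arm, the longest control peak in the filled blocks ran over 156.9 kb. The next ran over 88.0 kb, and both had a fold of 3.28. The largest control domain of the arms lay elsewhere, from 61107547 to 61381542 (274.0 kb). It was made of 29 peaks of at most 41.8 kb, had a higher length-weighted mean fold of 3.67, and was filled over 89.9%. Peaks in siORCA covered 15.3% of its control length, in 53 peaks of at most 3.92 kb. The control domain from 38775229 to 39024381 (249.2 kb), which contains a filled block, had a mean fold of 3.22 and 77.9% of its control length also covered in siORCA. The domain from 39929601 to 40112745 (183.1 kb) had a mean fold of 3.27 and 89.3%, and the short-arm domain from 8708866 to 8930333 (221.5 kb) a mean fold of 4.64 and 82.0%. The domain from 39363934 to 39512519 (148.6 kb) had a mean fold of 3.18 over 40 peaks and 2.05%.

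Domains were made by joining peaks with gaps of up to 3 kb, with a minimum length of 20 kb. This gave 139 control domains (7.23 Mb) and 21 siORCA domains (1.31 Mb) on the arms. The median control domain was 36.8 kb long and filled over 73.2%. Of its control length a median of 6.61% was also covered in siORCA, with quartiles of 1.53% and 22.7%. In 23 control domains no control base was also in a siORCA peak (2 of them held a siORCA peak in a gap). In 78, these 23 included, the share was under 10%, and in 10 it was at least 50%. Domains were not compared with those of other chromosomes here. On the short arm the median share was 13.9% in 37 domains, and on the long arm 5.87% in 102. Grouped by the longest peak they held, the 3 control domains with a peak of at least 50 kb had 82.6% of their control length also covered in siORCA. Those with a longest peak of 20 to 50 kb had 15.5% (23 domains), of 10 to 20 kb 12.8% (49) and of 5 to 10 kb 6.60% (29). Domains with shorter peaks only had 23.7% (35 domains), more than those with a longest peak of 5 to 50 kb.

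Of the 21 siORCA domains, 12 on the long arm had a median of 98.8% of their siORCA peak length also covered in the control. Gaps between peaks are not counted in this share, and its lowest value was 72.7%. The 9 on the short arm had a median of 55.5%, from 17.1% to 99.6%. The longest siORCA domain, from 25331477 to 25543659 (212.2 kb), lay close to the middle of the chromosome. It had 50.8% of its siORCA peak length also covered in the control. It was made of 104 peaks of at most 8.10 kb and was filled over 61.6%. Another, from 24572454 to 24678151 (105.7 kb, 45 peaks), had 71.6%. The longest peaks in both were shorter than those in the filled blocks, at most 11.6 kb in siORCA and 16.6 kb in the control. Both were shared less fully than those blocks, and so was a domain from 24705338 to 24740247, at 92.3%.

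Coverage in siORCA exceeded that in the control in 9 of the 100 kb bins covered over at least 5% in siORCA. Of these, 5 lay in the last 1 Mb of the short arm, from 24.8 Mb to the middle. Among these 5, the largest difference was from 25.4 to 25.5 Mb, with 42.6% in the control and 63.9% in siORCA, followed by 30.3% and 42.1% from 25.3 to 25.4 Mb. In these 2 bins the control peaks were covered over 70.7% and 69.3% by siORCA peaks. A further 3 of the 9 bins lay at the outer ends of the arms: 0 to 0.1 Mb (11.6% and 14.4%), 0.1 to 0.2 Mb (24.7% and 25.1%) and the last, partial bin at the long-arm end (19.6% and 37.3%). The remaining bin, from 45.3 to 45.4 Mb, stood at 9.47% and 10.97%. Of the broad bins, 4 of 140 were higher in siORCA, all on the short arm, against 16.2% over all chromosomes and 2.66% in the other chromosome ends.

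At the opposite extreme, 7 broad bins had no siORCA peak, 3 on the short arm and 4 on the long arm. No like count is given for other chromosomes, so it is open whether this number is usual. The short-arm bins were from 11.9 to 12 Mb (27.8% in the control), 12.2 to 12.3 Mb (21.2%) and 12.4 to 12.5 Mb (28.4%). On the long arm, the bin from 30 to 30.1 Mb was covered over 21.03% in the control by 4 peaks with a mean fold of 2.82. The longest control peak without a siORCA base, from 30118311 to 30140651 (22.3 kb, fold 2.82), and the next, from 30077629 to 30097069 (19.4 kb, fold 2.85), were both in the first 0.4 Mb of the long arm. From 30.1 to 30.2 Mb the control covered 61.0% and siORCA 0.631%. Before them, the first 2 bins of the long arm were nearly empty in both lists, with at most 1.35% in the control and 1.39% in siORCA.

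By number, 1093 of 5179 control peaks (21.1%, 95% Wilson interval 20.01 to 22.2%) had at least 1 base in a siORCA peak, against 33.7% over all chromosomes and 19.6% in the last 20 Mb of the 22 other chromosomes. Of the siORCA peaks, 1718 of 2354 (73.0%, 71.2 to 74.7%) had a base in a control peak, against 68.7% over all chromosomes. These intervals hold only the error of counting, as if peaks were independent of each other, which neighbours are not. Control peaks with a siORCA base had a median width of 1527 bp and a median fold of 2.97, and those without one 503 bp and 2.76 (the values of single peaks, within the control list). The 636 siORCA peaks without a control base had a median width of 253 bp and covered 0.195 Mb. The longest of them, from 61698089 to 61700511 near the end of the long arm, spanned 2.42 kb.

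The share of control peaks with at least 1 siORCA base differed by their fold. It was 6.33% at a fold under 2.5, 15.9% from 2.5 to 3, 35.1% from 3 to 3.5, 67.7% from 3.5 to 4 and 89.3% at 4 and above (28 peaks). In the last 20 Mb of the 22 other chromosomes these shares were 9.23%, 16.6%, 35.7%, 71.6% and 95.3%, and the intervals of the 2 sets overlapped in every fold class. By width, a longer peak can be met by its length alone, so the share of its length is given too. On the arms, the length also covered in siORCA was 7.94% in peaks under 0.3 kb, 7.75% from 0.3 to 1 kb, 9.28% from 1 to 3 kb, 12.7% from 3 to 10 kb and 18.5% from 10 to 30 kb. In the other ends it was 19.2% from 3 to 10 kb and 34.7% from 10 to 30 kb, above the arms in both classes. Of control peaks of 10 to 30 kb on the arms, 87 of 115 (75.7%, 67.1 to 82.6%) had a siORCA base, against 175 of 185 (94.6%, 90.3 to 97.0%) elsewhere. From 3 to 10 kb the shares were 52.7% (48.2 to 57.1%) and 63.1% (60.7 to 65.5%). In peaks of 30 kb or more the order was the other way, with 59.6% of the length of 17 peaks on the arms and 41.2% of that of 16 peaks elsewhere. The longest of these 17 lay in the domains with the filled blocks. They spanned 167.6, 156.9, 88.0 and 74.6 kb, and siORCA covered 98.68, 99.64, 88.86 and 94.99% of them. The next longest, of 49.8 kb, was covered over 9.28%. The share on the arms thus leaned on the filled blocks, and it was not computed without them.

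The gap between the sets among long peaks was also present within a fold class. Among control peaks with a fold of 3 to 3.5 and a width of 10 to 30 kb, 50 of 74 (67.6%, 56.3 to 77.1%) on the arms met a siORCA peak, against 107 of 115 (93.0%, 86.9 to 96.4%) in the other chromosome ends. At widths of 0.3 to 1 kb in the same fold class the order was the other way, 25.2% against 19.95%, with overlapping intervals. Long control peaks on the arms often lie side by side in 1 domain, so the effective number is smaller than the count.

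**Figure D4:**
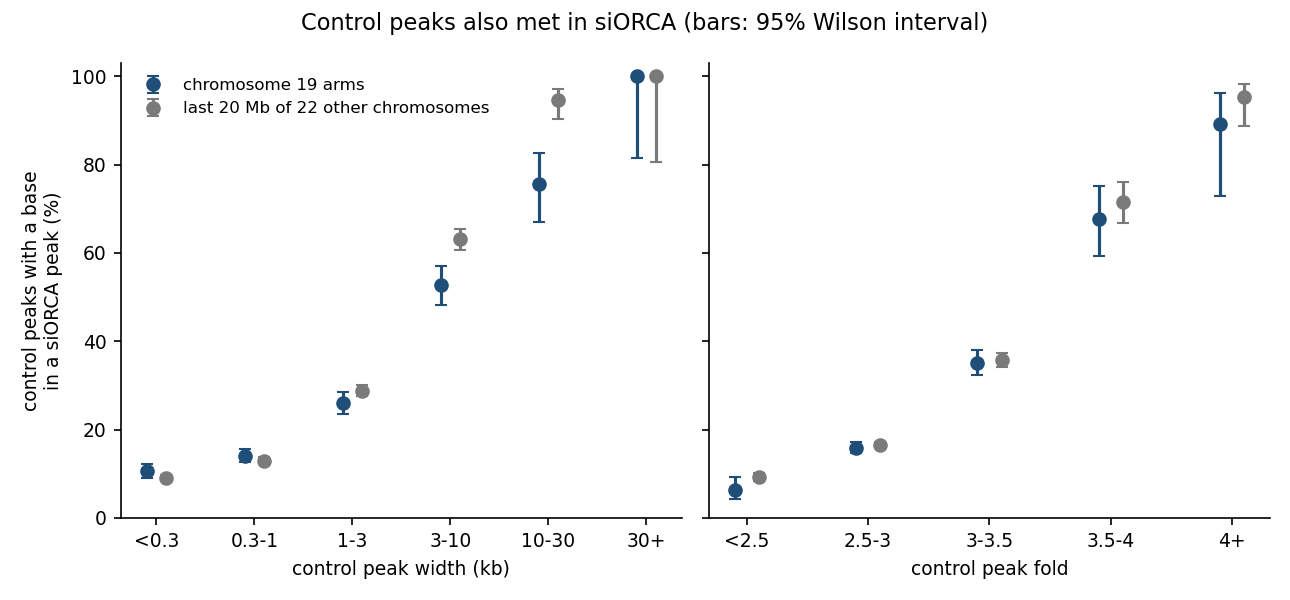
Share of control peaks with at least 1 base in a siORCA peak (y axis, percent) by the width (left, kb) and the fold (right) of the control peak, for the chromosome 19 arms (blue) and the last 20 Mb of the 22 other chromosomes (grey); points are shares and bars 95% Wilson intervals for counting error. The sets overlap in every fold class, and the arms lie lower at widths of 3 to 10 kb (52.7% and 63.1%) and 10 to 30 kb (75.7% and 94.6%).

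Among the last 20 Mb of all 23 chromosomes, that of chromosome 19 had the highest control coverage (18.6%, the others from 0.961% to 15.2% with a median of 5.25%) and the most broad bins (63, the others from 1 to 49). Its siORCA coverage, 3.17%, was exceeded by 1 of the 22 others (their range 0.448% to 3.77%). The ratio of covered length was 0.170, with 3 of the 22 others below it and 19 above (0.125 to 0.804, median 0.252). The end of chromosome 19 was therefore extreme in its control coverage and within the range of the others in its ratio.

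At like control coverage the median bin of the arms had a lower ratio than that of the other chromosome ends in the classes of at least 10%. In 100 kb bins covered over 40 to 60% in the control, the median ratio was 0.0804 on the arms (40 bins, quartiles 0.0192 and 0.185) and 0.185 in the other ends (63 bins, 0.121 and 0.347). At 60% and over it was 0.113 (40 bins) and 0.180 (43 bins), and at 20 to 40% 0.145 (60 bins) and 0.158 (195 bins), and the quartile ranges overlapped in all 3 classes. At 10 to 20% the medians were 0.0993 and 0.112, at 5 to 10% 0.0761 and 0.0697, and at 1 to 5% 0.02998 and 0.0478. These values set whole arms against ends only. In the last 20 Mb of chromosome 19 the median was below that of the other ends from 20% up. It was 0.0680 at 20 to 40%, 0.0597 at 40 to 60% and 0.137 at 60% and over. It was above that of the other ends at 10 to 20% (0.135), 5 to 10% (0.134) and 1 to 5% (0.0596). Summed over bins, the densest class was nearly alike: at 60% and over the ratio of covered length was 0.265 on the arms and 0.267 in the other ends, and the shared part of the control length 26.0% and 25.04%. The sum on the arms leaned on the filled blocks. Of 0.802 Mb of siORCA length in that class, bins with these blocks held 71.6, 100, 83.3, 84.9, 53.0 and 96.3 kb. At 40 to 60% the summed ratios were 0.179 and 0.283. These are descriptions of 2 libraries, and no test of the differences was made.

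**Figure D5:**
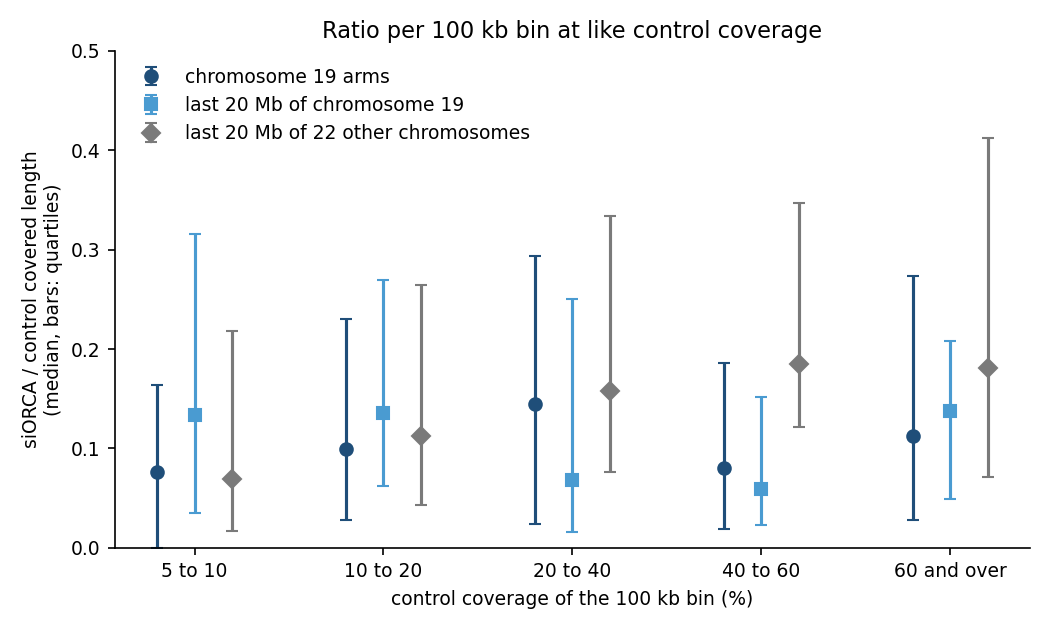
Ratio of siORCA to control covered length in 100 kb bins (y axis; points are medians over bins and bars quartiles) by the control coverage of the bin (x axis, percent), for the chromosome 19 arms (dark blue), the last 20 Mb of chromosome 19 (light blue) and the last 20 Mb of the 22 other chromosomes (grey). The medians on the arms lie lower than in the other ends at 40 to 60% (0.0804 and 0.185) with overlapping quartile ranges. Those in the last 20 Mb of chromosome 19 lie lower than in the other ends from 20% up and higher below 20%.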

How the data were processed

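H3K27me3 ChIP-seq peaks of 1 control and 1 siORCA library of U2OS cells were used. Fixation in 1% formaldehyde lasted 10 min and libraries were sequenced for 101 cycles from a single end, per the labels' protocols. Bowtie2, SAMtools, Trimmomatic, bcl2fastq and the T2T-CHM13 build appear in the submitters' processing notes; how peaks were called and multiply aligned reads treated is not given in the sources used here. The authors deposited 1 broadPeak list per library, with a fold enrichment (a ratio), a −log10 p-value, a −log10 q-value and a score per peak; the score was not used. These are the authors' own values and are used only for description, ranking and filters inside the same list. Depth per library was not given, so its effect on precision is unknown.

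The short arm ends at 25.8 Mb and the long arm starts at 29.8 Mb. Covered length is the merged length of peaks, counted per base in bins with Python 3.11.15, numpy 2.4.6 and pandas 2.3.3. No test between conditions was made. The code was checked on a simulated list of control peaks drawn at a rate of 20% with unchanged borders. Of 5179 peaks, 100% were classed correctly as kept or dropped. A kept peak overlaps itself there, so this checks the code only and not shifted or split peaks. Regions were named by rule: all 1 Mb bins of at least 20% control coverage, the 10 runs with the most control length, the extreme 100 kb bins, the 5 longest domains and the 3 strongest peaks of each list. The members, lists and rules were chosen with earlier results of these data known. The comparison with the last 20 Mb of other chromosomes and the filled blocks were chosen after seeing the values. No sequence of these regions is shown, since no genome of this build was used here.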

Additional observations from a re-analysis of the deposited data

How the results depend on the processing

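No paired analysis was possible because control and siORCA had 1 library each, and for the same reason no library could be left out. In all settings siORCA stayed below the control in covered length and in the number and length of domains, and 36 of 55 values stayed within 1.5 times the value reported. With a −log10 q of at least 2, the ratio of covered length was 0.146 (0.223 with all peaks), the ratio of domain numbers 0.0758 (0.151) and the broad bins numbered 93 (140). Keeping only folds of 3 or more left 79 broad bins, 66 of them under 50% of the control (120 of 140), and gave ratios of 0.316 for domain numbers and 0.429 for domain length (0.181). That limit keeps 1288 of the control peaks and 1874 of the siORCA peaks, since the lists start at different folds. Equal numbers of peaks gave 0.231 and 0.273 for the same ratios. With a limit of 40% control coverage there were 80 broad bins, 69 of them under 50% of the control. The ratio of domain numbers was 0.0824 with gaps of at most 1 kb, 0.431 with 10 kb and 0.0962 for domains of at least 50 kb; that of domain length was 0.301 with gaps of 10 kb. Without the 3 control domains that hold a peak of at least 50 kb, the ratio of domain length was 0.120, and 12.7% of the control length was also covered in siORCA (17.6%). The short-arm ratio of covered length was 0.216 without the stretch from 24 Mb to the middle and 0.128 also without those domains (0.331). These settings were chosen after seeing the data. Counted as peaks overlapped over at least 50% of their length, the control share was 7.49% (21.1% by at least 1 base). For these changes the cause was not tested, apart from the smaller number of peaks or bins that each limit leaves. With depth unknown, a region empty in siORCA was not shown to lack the mark.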

Other observations

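The arms of chromosome 19 also held long stretches with little of the mark in either list. Besides the stretch from 17.2 to 24.4 Mb, runs of at least 10 consecutive 100 kb bins with under 5% control coverage lay from 10.2 to 11.8 Mb (0.592% in the control and 0.0408% in siORCA), from 49.4 to 50.9 Mb (1.02% and 0.608%), from 47.5 to 48.9 Mb (0.869% and 0.234%) and from 4 to 5.3 Mb (1.21% and 0.180%). From 49.4 to 50.9 Mb siORCA had more peaks than the control, 29 against 18. The stretch from 10.2 to 11.8 Mb ended shortly before the run from 11.9 to 12.7 Mb, where control peaks covered 34.4%. Bins with under 1% control coverage numbered 185 of 578, and siORCA covered 0.0395 Mb of them against 0.0436 Mb in the control, with 5.12% of that siORCA length also covered in the control.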
